A study of Homo sapiens with 12 samples.

Results

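Peaks of H3K27ac, the acetylation of histone H3 at lysine 27 that marks active promoters and enhancers, were described at 8 acyl-CoA synthetase genes, out of 19974 protein-coding genes of the series. The 8 genes (ACSL1, ACSL3, ACSL4, ACSL5, ACSL6, ACSM3, ACSF2 and ACSF3) were named by symbol, with no threshold on their values. They were chosen with earlier results of these data known. The share of members called beside that of all genes is therefore a description and no test of the set. Other acyl-CoA synthetases (18 genes) are not among the 8. For each gene, every peak in the gene body and within 5 kb of either end (RefSeq annotation, GRCh38.p14) was taken in all 12 libraries. All 8 had a peak in at least 2 libraries and so entered the tests. Covered length, the number of bp under peaks in this window, was the measure compared. It tells how far peaks reach, not how high the signal is.

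The study profiled CFPAC1 and MiaPaCa2, established lines from human pancreatic ductal adenocarcinoma, by chromatin immunoprecipitation with sequencing, and its title ties the transcription factor IRF1 to metabolic programmes of low-grade tumour cells. The 12 libraries fall into 6 groups of 2. Bulk CFPAC1 and bulk MiaPaCa2 were each taken untreated and after 2 h with human IFN-beta, a type I interferon, at 1000 U/ml. The WT clones are CFPAC1 cells infected with the lentiCRISPRv2 vector and isolated by dilution, and the labels name no guide for them. The IRF1KO clones were made in the same way with a vector that carries Cas9 and a guide against IRF1. No clone is labelled as treated with IFN-beta. Separate cultures are not stated for the bulk groups, so the p-values measure the spread between these libraries, which may be technical. They name 2 kinds of sequencer without saying which library ran on which, so a sequencing batch and a group cannot be told apart.

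Acyl-CoA synthetases join a fatty acid to coenzyme A at the cost of ATP, the step that commits the fatty acid to oxidation in mitochondria, to storage in triglycerides or to membrane lipids. The ACSL enzymes act on long chains and sit on the endoplasmic reticulum, the mitochondrial outer membrane or lipid droplets. ACSM3 and ACSF2 act on medium chains in mitochondria, and ACSF3 makes malonyl-CoA there. ACSL5 is known for its high expression in the intestinal epithelium.

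The promoter sequences of 3 ACSL genes are shown first because the base composition of the ACSL5 windows differs from that of ACSL3 and ACSL4. The windows are RefSeq promoters of GRCh38.p14, from 250 bases before to 50 bases after an annotated start, printed 5′ to 3′ on the strand of the gene. Capitals mark GC boxes (GGGCGG on either strand), the site bound by SP factors. ACSL5 has 2 annotated starts on the plus strand, at chr10:112375018-112375317 (start 1) and chr10:112375955-112376254 (start 2). ACSL3 lies on the plus strand at chr2:222860786-222861085 and ACSL4 on the minus strand at chrX:109733208-109733507.
ACSL5 start 1: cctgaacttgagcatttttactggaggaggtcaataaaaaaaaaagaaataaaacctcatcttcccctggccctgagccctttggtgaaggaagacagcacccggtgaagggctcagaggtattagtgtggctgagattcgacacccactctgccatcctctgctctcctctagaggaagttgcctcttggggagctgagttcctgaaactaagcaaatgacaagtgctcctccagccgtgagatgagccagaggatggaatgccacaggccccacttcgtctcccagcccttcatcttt
ACSL5 start 2: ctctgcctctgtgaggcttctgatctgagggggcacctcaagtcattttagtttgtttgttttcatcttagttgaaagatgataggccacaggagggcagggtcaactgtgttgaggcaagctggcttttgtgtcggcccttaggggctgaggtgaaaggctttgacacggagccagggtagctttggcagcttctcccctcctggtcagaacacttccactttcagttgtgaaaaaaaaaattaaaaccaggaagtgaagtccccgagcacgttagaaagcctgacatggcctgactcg
ACSL3: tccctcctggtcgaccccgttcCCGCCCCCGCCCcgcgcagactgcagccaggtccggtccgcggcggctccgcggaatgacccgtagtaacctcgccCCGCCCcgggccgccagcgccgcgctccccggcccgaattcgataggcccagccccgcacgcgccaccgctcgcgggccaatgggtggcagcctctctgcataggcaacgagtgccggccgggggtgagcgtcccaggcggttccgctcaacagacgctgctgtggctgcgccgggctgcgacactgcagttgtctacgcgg
ACSL4: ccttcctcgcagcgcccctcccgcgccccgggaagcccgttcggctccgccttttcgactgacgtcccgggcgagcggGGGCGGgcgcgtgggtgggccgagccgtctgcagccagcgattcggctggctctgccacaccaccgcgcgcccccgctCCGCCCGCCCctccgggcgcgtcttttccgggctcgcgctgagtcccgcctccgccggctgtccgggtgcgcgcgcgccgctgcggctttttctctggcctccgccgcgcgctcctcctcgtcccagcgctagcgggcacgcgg
The ACSL5 windows are poor in CpG. They hold 4 and 5 CpG dinucleotides at a GC content of 51.0% and 50.0%, whereas the median over 35116 promoter windows is 14 CpG and 58.7% GC. The ACSL3 window holds 41 CpG and the ACSL4 window 51, at 74.0% and 77.7% GC. GC boxes were found at 3 places in ACSL3, 3 in ACSL4 and none in either ACSL5 window, against 45.0% of all windows with at least 1. Neither ACSL5 window holds the letters GAAANNGAA of the interferon-stimulated response element, TTCNNNGAA of the STAT site or TGANTCA of the AP-1 site, searched on both strands. These letters occur in 8.1%, 7.7% and 7.7% of all windows. RefSeq promoter windows were found for 7 of the 8 members, 19 windows in all. None of the 19 holds GAAANNGAA, and TTCNNNGAA and TGANTCA each occur in 1, the third start of ACSL1.

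Coverage of these windows by peaks split by line at start 1 of ACSL5, and at its start 2 among untreated libraries alone. The windows of ACSL3, ACSL4 and ACSF3 did not split by line. In all 8 CFPAC1 libraries both ACSL5 windows lay under peaks for all 300 of their bases. In MiaPaCa2 the window of start 1 was bare in all 4 libraries. The window of start 2 was bare in both untreated MiaPaCa2 libraries and covered over 300 bases in both treated ones. The ACSL3 and ACSL4 windows were touched by a peak in all 8 CFPAC1 and all 4 MiaPaCa2 libraries. The first ACSF3 window was touched in 7 CFPAC1 and 4 MiaPaCa2 libraries. ACSL1 has 5 windows, and its second start, inside the gene, was touched in 7 CFPAC1 and 0 MiaPaCa2 libraries.

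Per length, ACSL5 carried the broadest acetylation of the 8 genes in CFPAC1, and it had almost none in MiaPaCa2. The gene lies on chromosome 10 from 112374116 to 112428376. Its covered length in untreated CFPAC1 was 37255 and 33162 bp, in treated CFPAC1 29332 and 27577 bp, in WT clones 32818 and 28512 bp, and in IRF1KO clones 22031 and 26731 bp. Without treatment MiaPaCa2 had 0 and 0 bp, and with treatment 1058 and 924 bp. All 8 CFPAC1 libraries are therefore above all 4 MiaPaCa2 libraries, with the lowest CFPAC1 value at 22031 bp and the highest MiaPaCa2 value at 1058 bp. How many of all genes separate the lines in this way was not counted. Peaks covered 34.3 to 58.0% of the ACSL5 window in CFPAC1 libraries, and in no library more than 17.2% of the window of another member. A smaller share of cells with acetylation and less acetylation in each cell cannot be told apart in these bulk cultures. Among all 19974 genes ACSL5 ranked between 147 and 320 by covered length in the CFPAC1 libraries.

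The group means of ACSL5, with SD and n = 2 each, ran from 35208.5 ± 2894 bp in untreated CFPAC1 over 30665 ± 3045 bp in WT clones and 28454.5 ± 1241 bp in treated CFPAC1 to 24381 ± 3323 bp in IRF1KO clones. Treated MiaPaCa2 followed at 991 ± 94.8 bp and untreated MiaPaCa2 at 0 bp. The WT clones and treated CFPAC1 overlap in this order. The other neighbouring groups do not overlap, though with 2 libraries each.

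**Figure D1:**
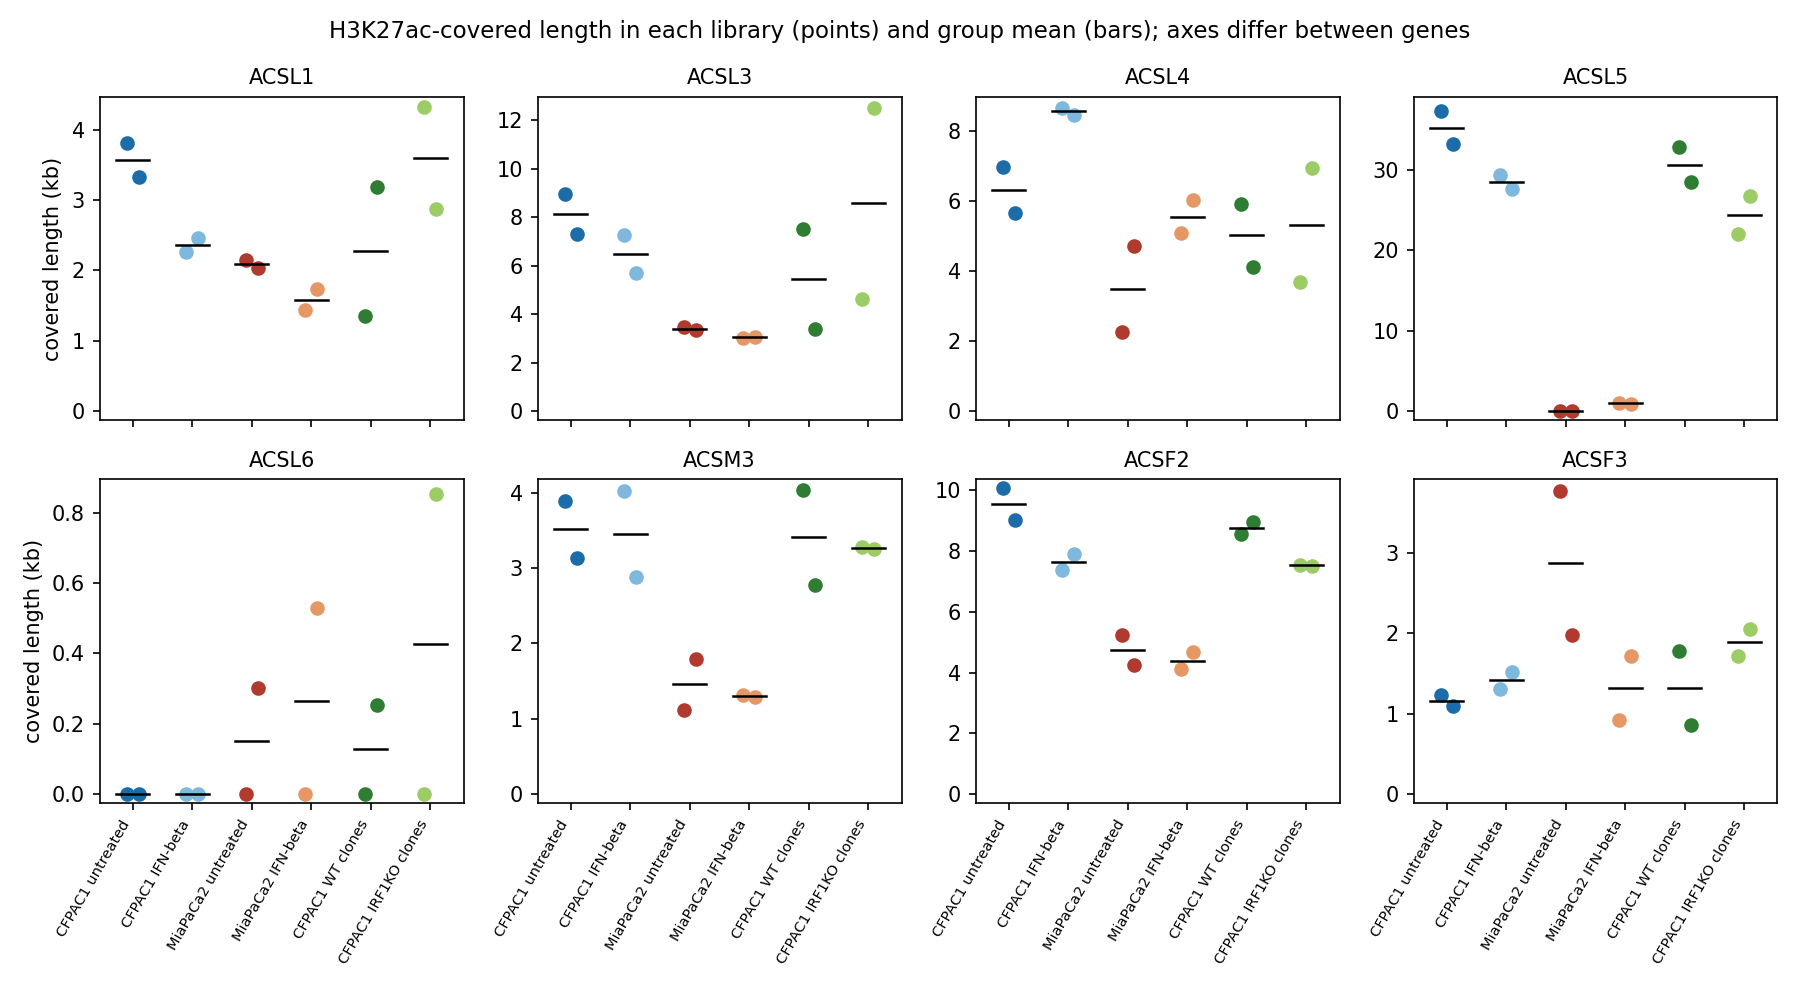
Covered length (kb) of H3K27ac peaks in the gene body and 5 kb flanks of each of the 8 genes, 1 point per library and a bar at each group mean; the vertical axes differ between genes. The 8 CFPAC1 points of ACSL5 lie between 22031 and 37255 bp and the 4 MiaPaCa2 points between 0 and 1058 bp.

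The ACSL5 coverage in CFPAC1 was a near-continuous domain that began just before the gene and ran into its body. Merged over the libraries, 3 intervals next to the start (112373456 to 112381542, 112381742 to 112392353, and 112392635 to 112397191) span 23.7 kb. They held 22449 and 22846 bp in untreated CFPAC1, 22481 and 22148 bp in treated CFPAC1, 22444 and 21809 bp in WT clones and 18857 and 21638 bp in IRF1KO clones. IRF1KO clone 1 was lowest, and the other 7 values lie between 21638 and 22846 bp. The rest of the window differed more, with 14806 and 10316 bp in untreated CFPAC1, 6851 and 5429 bp in treated CFPAC1, 10374 and 6703 bp in WT clones and 3174 and 5093 bp in IRF1KO clones. This division of the window was chosen after its values were seen and was not tested.

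Outside the 5′ domain, 6 short intervals of 395 to 1029 bp, lying 41.6 to 58.8 kb from the gene start, were held by both untreated CFPAC1 libraries and by neither treated one. Their highest folds in untreated CFPAC1 were only 2.87 to 7.21. At 2 intervals, 112430569 to 112431338 and 112431530 to 112432369, both WT clones and neither IRF1KO clone held a peak. Both lie past the annotated end of ACSL5 and inside ZDHHC6, a palmitoyltransferase gene whose body overlaps the end of ACSL5 by 3965 bp. They are also among the 6 intervals above. Of those 6, all except 112415729 to 112416123 lie in ZDHHC6 or within 1 kb of its end. The losses at these intervals were not tested, and how many such intervals other genes hold was not counted. The interval from 112400653 to 112404839 was held by all CFPAC1 libraries, with 3954 and 2523 bp in WT clones and 1471 and 2313 bp in IRF1KO clones.

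**Figure D2:**
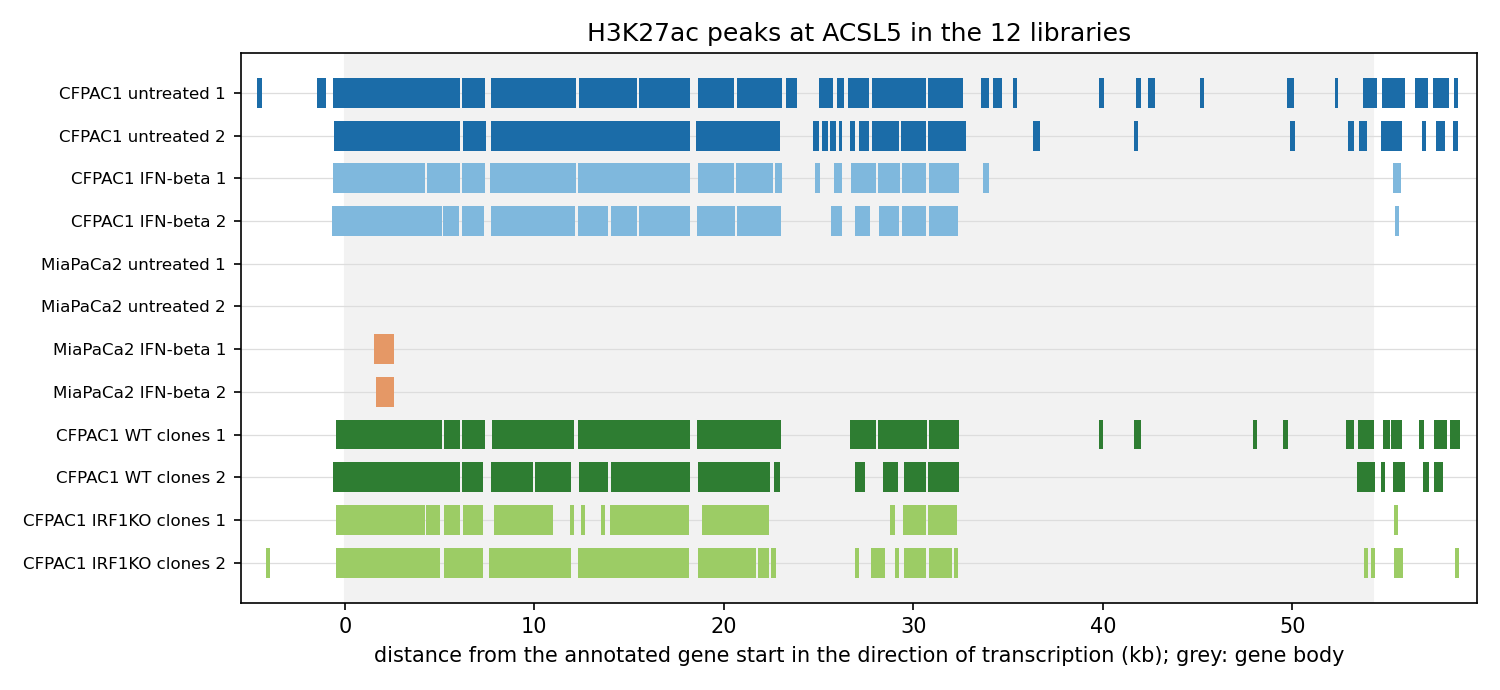
Peaks at ACSL5 in the 12 libraries by distance from the annotated gene start (kb), with 1 line per library, colours for the 6 groups and the gene body in grey. The 8 CFPAC1 libraries share a domain of 23.7 kb at the start, treated MiaPaCa2 has 1 peak per library near the start, and untreated MiaPaCa2 has none.

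The peaks of this domain were among the highest of their lists in CFPAC1. Each peak's fold enrichment over local background is the authors' value and is used only within a list. The highest ACSL5 fold was 37.9 and 32.9 in untreated CFPAC1, 52.6 and 29.7 in treated CFPAC1, 38.0 and 37.1 in WT clones and 38.5 and 25.6 in IRF1KO clones. These peaks ranked between 25 and 468 in lists of 80618 to 109861 peaks. Treated MiaPaCa2 had a fold of 7.44 and 6.22 at ACSL5, within the top 37.7% and 35.4% of the list. The summits of the highest peaks lay 174 to 553 bp downstream of start 2 in CFPAC1, and in treated MiaPaCa2 299 bp before it in replicate 1 and 126 bp after it in replicate 2.

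The 2 h IFN-beta comparison in MiaPaCa2 asked which of these genes gain acetylation in that line. ACSL5 rose, and it was the 1 member of 8 called, where 0.645% of the 16284 tested genes were called. Both untreated libraries had 0 bp and both treated libraries had 1 peak, of 1058 and 924 bp, so the groups do not overlap. The fitted log2 change of ACSL5 was 1.68 ± 0.15 (SE) with an adjusted p of 0.00172 in limma with Benjamini-Hochberg adjustment over all genes. Because the untreated group is at 0 bp, this change depends on the pseudocount of 500 bp and gives no fold. The call was lost with 2000 bp (0.65, adjusted p 0.0807) and with the number of peaks in place of length (1.17, 0.104). In a fit of the 4 MiaPaCa2 libraries alone the change was 1.69 ± 0.33 with an adjusted p of 0.211.

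ACSL4, which prefers arachidonic acid and is known for sensitising cells to ferroptosis, had 2277 and 4721 bp in untreated and 5083 and 6025 bp in treated MiaPaCa2. Treated libraries are higher without overlap, but the log2 change of 0.77 ± 0.32 had a limma adjusted p of 0.607. Without untreated replicate 1 it was 0.27, and without untreated replicate 2 it was 1.26 (adjusted p 0.0781). ACSF3, the malonyl-CoA synthetase, had 3770 and 1973 bp before and 926 and 1722 bp after treatment, a log2 change of -0.77 ± 0.27 with an adjusted p of 0.442. It was -0.42 without untreated replicate 1 and -1.12 without untreated replicate 2. The other 5 members had log2 changes from -0.21 (ACSL1) to 0.28 (ACSL6). ACSL1, ACSL3 and ACSF3 also did not overlap between untreated and treated libraries. The share of all genes without overlap in MiaPaCa2 was not counted, so this is no result about the members. The median log2 change over the 8 members was 0.00, beside 0.03 over all genes tested.

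In CFPAC1 the same treatment called 0 of the 8 members, where 1.01% of genes tested were called. No member had an unadjusted limma p under 0.05, while 1855 of the 16284 genes tested did. ACSL5 had a log2 change of -0.14 ± 0.15 with an adjusted p of 0.858, although both treated values (29332 and 27577 bp) were below both untreated values (37255 and 33162 bp). Total covered length moved the same way, from 84.7 and 94.8 Mb in untreated to 76.9 and 76.6 Mb in treated CFPAC1. Over the alternatives the ACSL5 change ranged from -0.51 with the number of peaks in place of length, and -0.50 with gene ends only, to -0.02 without untreated replicate 1. It passed the test in none of the 18.

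ACSL4 had the largest fitted change of the 8 in treated CFPAC1, at 0.58 ± 0.32 on the log2 scale with a limma adjusted p of 0.596. Its values were 6988 and 5667 bp before and 8675 and 8475 bp after treatment. ACSL1, which supplies acyl-CoA for oxidation and triglycerides, had 3812 and 3325 bp before and 2259 and 2455 bp after treatment (-0.35 ± 0.33, adjusted p 0.825). The groups do not overlap at ACSL1, ACSL3, ACSL4, ACSL5, ACSF2 or ACSF3, yet none of these passed the test. How many of all genes do not overlap was not counted. ACSL3, an enzyme of lipid droplets, had 8938 and 7322 bp before and 7274 and 5715 bp after treatment. The median change of the 8 members was 0.00, against 0.02 over all genes.

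Within ACSL4, on chromosome X from 109641335 to 109733257, the treated libraries of both lines shared a stretch inside the gene body. From 25.5 to 26.5 kb downstream of the gene start (109706709 to 109707803, 1095 bp), peaks covered 1095 and 1095 bp in treated CFPAC1 and 1009 and 744 bp in treated MiaPaCa2. Untreated CFPAC1 had 200 and 0 bp there, and untreated MiaPaCa2, the WT clones and the IRF1KO clones had 0 bp in all 6 libraries. The surrounding merged interval (109706346 to 109709941) held 3596 and 3101 bp in treated CFPAC1 and 1168 and 531 bp in untreated CFPAC1. Its highest fold in treated libraries was 15.7 and 10.7 in CFPAC1 and 7.79 and 6.96 in MiaPaCa2. The stretch was picked after its values were seen and was not tested. At the ACSL4 start all 12 libraries held a peak, with 1854 to 2588 bp covered. Counting only the 5 kb on either side of each gene end leaves out this stretch and the gene body farther than 5 kb from an end. The ACSL4 change was then -0.21 in CFPAC1 and 0.27 in MiaPaCa2.

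**Figure D3:**
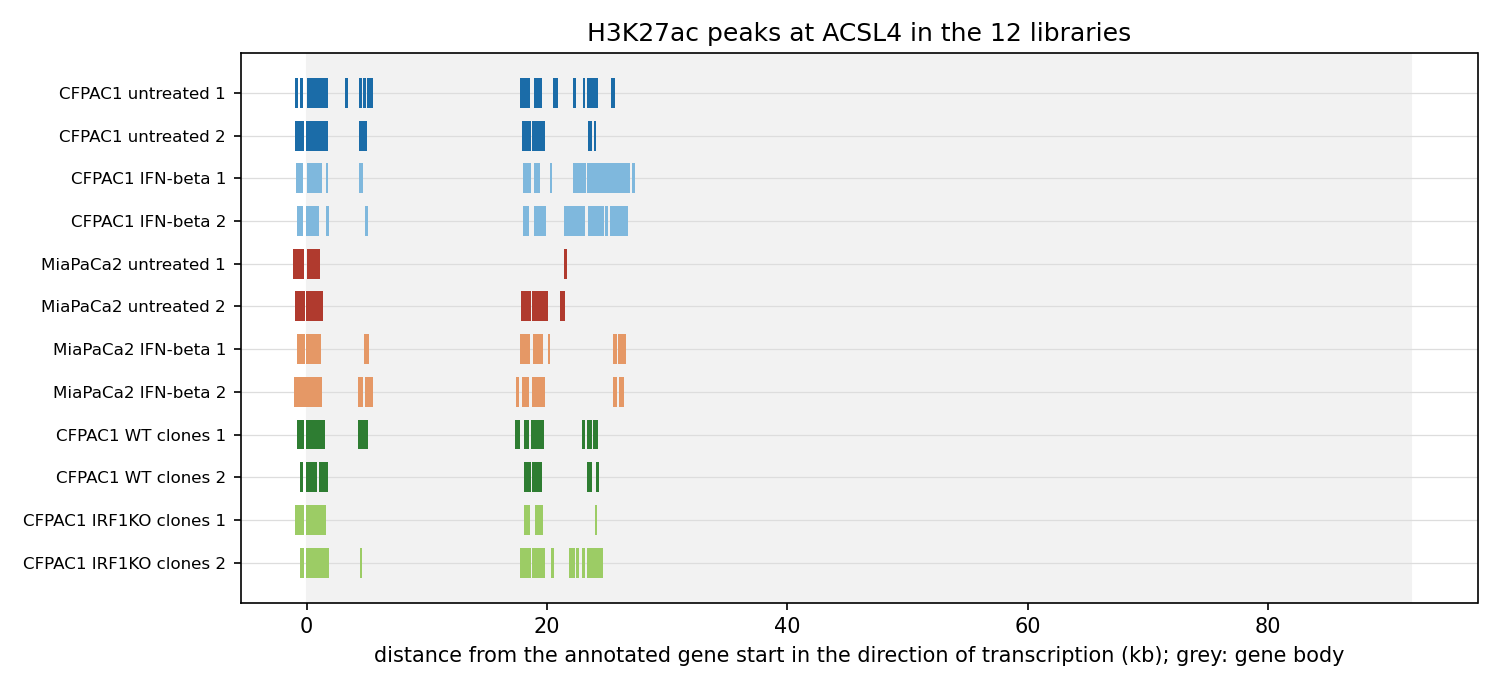
Peaks at ACSL4 in the 12 libraries by distance from the annotated gene start (kb), with 1 line per library, colours for the 6 groups and the gene body in grey. All 12 libraries have peaks at the start, and the 4 treated libraries cover 744 to 1095 bp of the stretch from 25.5 to 26.5 kb, where the other 8 have 0 to 200 bp.

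The difference between the lines in their response to IFN-beta was tested as 1 contrast. ACSL5 was the 1 member of 8 called, where 0.0614% of genes (10 of 16284) were called. Its change in CFPAC1 minus that in MiaPaCa2 was -1.815 ± 0.21 on the log2 scale (limma adjusted p 0.0230). The size rests on the pseudocount, with -3.66 at 100 bp and -0.83 at 2000 bp. The contrast sets a gene already covered over 27577 bp or more in CFPAC1 against one that went from 0 to about 1 kb in MiaPaCa2, and it shares every library with the 2 comparisons above. The call was lost in 10 of 22 alternatives. Among these were 6 of the 8 fits that left out 1 library, all except those without untreated CFPAC1 replicate 2 (adjusted p 0.0480) or without treated MiaPaCa2 replicate 2 (0.0234). Across those 6 fits, which left out either treated CFPAC1 library, either untreated MiaPaCa2 library, untreated CFPAC1 replicate 1 or treated MiaPaCa2 replicate 1, the adjusted p was 0.0546 to 0.158. ACSF3 had a difference of 1.13 ± 0.39 with an adjusted p of 0.482.

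Between the untreated lines, 3 members were lower and 1 was higher in MiaPaCa2 than in CFPAC1. These 4 of 8 stand beside 58.6% of all genes called, so the share of members is near the background. ACSL5 had the largest difference, -5.92 ± 0.15 on the log2 scale (limma adjusted p 8.39e-09). With MiaPaCa2 at 0 bp that value rests on the pseudocount and gives no fold: it was -8.08 with 100 bp and -4.08 with 2000 bp. This comparison shares untreated libraries with those above. The share of all genes whose untreated groups do not overlap was not counted.

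ACSF2, a medium-chain enzyme, was covered over 10067 and 9008 bp in untreated CFPAC1 and 5249 and 4250 bp in untreated MiaPaCa2. The log2 difference was -0.70 ± 0.13 (limma adjusted p 0.00163). All 8 CFPAC1 libraries (7362 to 10067 bp) were above all 4 MiaPaCa2 libraries (4110 to 5249 bp). As for ACSL5, how many of all genes do so was not counted. The gene lies on chromosome 17 from 50426218 to 50474845, and its largest difference lay just before it: the interval 50422398 to 50426108 held 3515 and 3614 bp in untreated CFPAC1 and 827 and 591 bp in untreated MiaPaCa2. The interval over the gene start, 50426186 to 50428209, was held by all 12 libraries with 1413 to 1996 bp. Counted over the gene body alone, the ACSF2 difference was -0.43 with an adjusted p of 0.114, and with the number of peaks in place of length it was -0.25 (0.554). The window also takes in an end of RSAD1 and the whole of CHAD.

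ACSM3 had 3893 and 3133 bp in untreated CFPAC1 and 1121 and 1793 bp in untreated MiaPaCa2 (-0.81 ± 0.23, limma adjusted p 0.0144). Its 8 CFPAC1 libraries (2781 to 4033 bp) do not overlap its 4 MiaPaCa2 libraries (1121 to 1793 bp), which again was not counted over all genes. The peak that all 12 libraries share in its window, at chr16 from 20739940 to 20742219, lies at an end of THUMPD1, a gene inside ACSM3. The ACSM3 body also overlaps ACSM1 by 23276 bp and ERI2 by 17389 bp. Intervals between 20673168 and 20675923, held by CFPAC1 libraries alone, lie inside ACSM1, so their coverage cannot be assigned to either gene. With bases within 1 kb of another gene's end left out, untreated CFPAC1 kept 2883 and 2095 bp and untreated MiaPaCa2 71 and 392 bp. The interval from 20762800 to 20763911 was held by all 8 CFPAC1 libraries (642 to 1112 bp) and by no MiaPaCa2 library. The call was lost without untreated CFPAC1 replicate 1 (adjusted p 0.0953) or untreated MiaPaCa2 replicate 1 (0.105), and with only the gene ends counted (0.0995).

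ACSF3 was the member with more coverage in MiaPaCa2. Its values were 1233 and 1091 bp in untreated CFPAC1 and 3770 and 1973 bp in untreated MiaPaCa2, a log2 difference of 1.21 ± 0.27 (limma adjusted p 0.00435). The untreated groups do not overlap. Over all libraries of each line they do, with 860 to 2057 bp in CFPAC1 and 926 to 3770 bp in MiaPaCa2. Untreated MiaPaCa2 replicate 1 stood highest, with 10 peaks at the gene where the other 11 libraries had 2 to 4.

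ACSL3 and ACSL4 did not pass in this comparison. ACSL3 had 8938 and 7322 bp in untreated CFPAC1 and 3471 and 3354 bp in untreated MiaPaCa2, without overlap, and a log2 difference of -0.90 ± 0.39 (limma adjusted p 0.0712). Intervals at its start were held by all 12 libraries, and most others in the gene by CFPAC1 alone: from 222890928 to 222893232, 7 of 8 CFPAC1 and 0 of 4 MiaPaCa2 libraries held a peak. ACSL4 had a difference of -0.60 ± 0.32 (adjusted p 0.139) and ACSL1 -0.41 ± 0.33 (0.302). The median over the 8 members was -0.65, where the median of all genes tested was 0.25. Without centring the median of all genes was 0.02 and the split of called genes moved from 5872 higher and 3664 lower in MiaPaCa2 to 3493 and 4280. No member that was called changed direction without centring or with quantile normalization.

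ACSL6, a synthetase best known in brain, was covered in 4 of 12 libraries. Untreated MiaPaCa2 replicate 2 had 302 bp, treated MiaPaCa2 replicate 2 had 529 bp, WT clone 2 had 254 bp and IRF1KO clone 2 had 852 bp. The other 8 libraries had 0 bp, all 4 bulk CFPAC1 libraries among them. Its fitted change of 0.16 in treated CFPAC1, from 0 bp in both groups, comes from the centring alone and is 0 without it.

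The clone comparison asked whether disruption of IRF1 alters acetylation at these genes in CFPAC1 without added interferon. No member of 8 was called, where 1.24% of genes (202) were called. By unadjusted limma p, 2378 of the 16284 genes tested and 2 members of 8 were under 0.05. They were ACSL5, with a log2 change of -0.46 ± 0.15 (limma p 0.0119, adjusted p 0.193), and ACSF2, with -0.34 ± 0.13 (p 0.0313, adjusted p 0.286). At ACSL5 both IRF1KO clones (22031 and 26731 bp) were below both WT clones (32818 and 28512 bp). At ACSF2 the IRF1KO clones had 7555 and 7495 bp and the WT clones 8548 and 8951 bp, also without overlap. The share of all genes without overlap between the clone groups was not counted.

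The other members overlapped between the clone groups. ACSL3 had 4642 and 12502 bp in IRF1KO clones and 7500 and 3408 bp in WT clones, so that the clones of a group differed more than the group means. ACSL1 had 4320 and 2867 bp in IRF1KO clones and 1351 and 3186 bp in WT clones. The median log2 change was 0.10 over the 8 members and -0.05 over all genes. IRF1 itself had a covered length of 5485 and 6341 bp in WT clones and 8271 and 14027 bp in IRF1KO clones, which does not read out its protein and is no check of the knockout. IRF1KO clone 1 stands apart in its deposited list, where the smallest -log10 q was 1.37 and the other 11 lists began at 1.32 or below. Clone 2 of the IRF1KO group had the most peaks, 109861. Among CFPAC1 libraries it was lowest at the epithelial genes CDH1 (11616 bp), GRHL2 (3653 bp), ESRP1 (500 bp), EPCAM and ELF3, but not at KLF5 or KRT19. IRF1KO clone 1 had 24834, 13653 and 4356 bp at CDH1, GRHL2 and ESRP1. The part of this in the clone comparison was not tested.

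**Figure D4:**
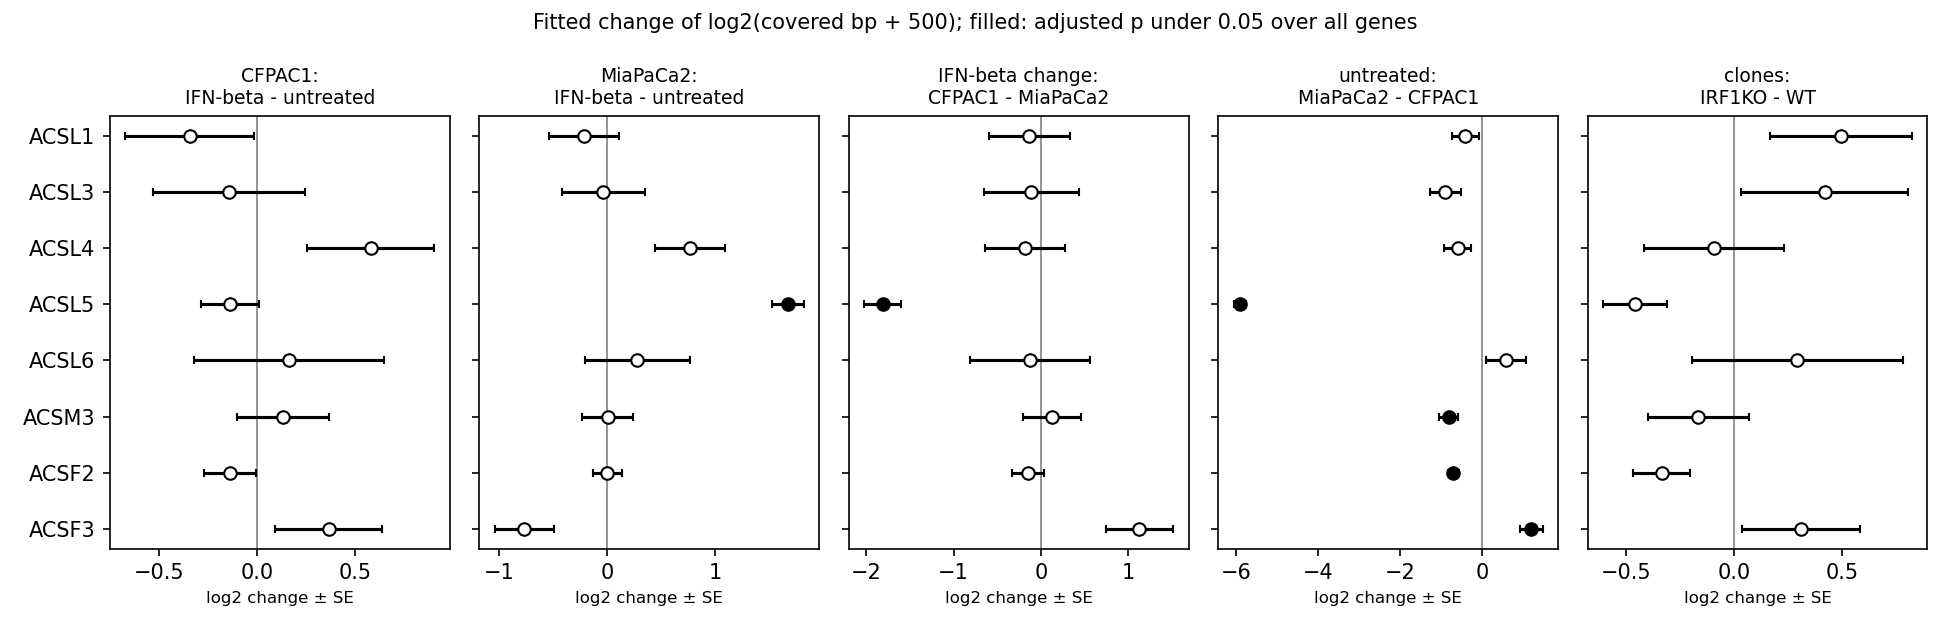
Fitted log2 change in covered length (limma, pseudocount 500 bp) with its standard error for the 8 genes in the 5 comparisons; filled points passed an adjusted p of 0.05 and the horizontal axes differ. ACSL5 is filled in 3 comparisons, and ACSM3, ACSF2 and ACSF3 are filled between the untreated lines alone.

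Across the 12 libraries, 5 genes on other chromosomes had the pattern most like that of ACSL5 by Pearson's r of centred log2 covered length: TMCC3 (0.997), PLAAT3 (0.997), CRYBG1 (0.996), TMEM51 (0.996) and GLRX (0.996). TMCC3 had 18958 and 21459 bp in untreated CFPAC1, 0 and 0 bp in untreated MiaPaCa2, and 864 and 685 bp in treated MiaPaCa2. CRYBG1 had 29915 and 33910 bp, 0 and 0 bp, and 1585 and 1473 bp in the same groups. An r above 0.95 was found for 1048 of 16283 genes, and the points share 8 libraries of 1 line and 4 of the other.

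Genes around the acyl-CoA step were counted from 6 lists, chosen with earlier results of these data known. In the IFN-beta comparisons, 1 gene of the lists passed: SCD5, a stearoyl-CoA desaturase, fell in treated CFPAC1 from 1043 and 1880 bp to 222 and 200 bp (-1.27 ± 0.24, limma adjusted p 0.0455), where 1.01% of all genes were called. Without untreated or without treated CFPAC1 replicate 1, 0 genes of the whole table fell. None passed between the clones or in the difference of the IFN-beta changes. Between untreated lines, 2 of 12 other acyl-CoA synthetases were higher in MiaPaCa2 and 4 were lower. Among the lower ones was ACSM6, a relative of ACSM3, with 5909 and 11938 bp in untreated CFPAC1 and 0 bp in every MiaPaCa2 library. SLC27A5, a bile acid and fatty acid synthetase, was higher, with 3025 and 2731 bp in CFPAC1 and 7709 and 5013 bp in MiaPaCa2 (limma adjusted p 0.00112).

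Of 22 genes of the carnitine shuttle and beta-oxidation, 7 were higher and 3 lower in untreated MiaPaCa2. The gene of this list with the smallest limma adjusted p (1.99e-05), ACADL, was among the 3 lower ones. It had 4997 and 6783 bp in untreated CFPAC1 and 0 bp in every MiaPaCa2 library. ACADVL, the very-long-chain acyl-CoA dehydrogenase, had 2167 and 1902 bp in CFPAC1 and 9430 and 7201 bp in MiaPaCa2. Of 18 genes of glycerolipid synthesis and lipid droplets, 9 were higher and 1 lower. AGPAT2, an acyltransferase of triglyceride synthesis, had 1975 and 1783 bp in CFPAC1 and 17960 and 12220 bp in MiaPaCa2. Of 18 genes of fatty acid synthesis, 6 were higher and 5 lower, of 14 thioesterases and acyl-CoA binding proteins 3 and 3, and of 12 regulators 6 and 4. PPARG, a nuclear receptor known to regulate acyl-CoA synthetases, had 28215 and 34333 bp in CFPAC1 and 1167 and 1430 bp in MiaPaCa2. The shares called, from 42.9 to 83.3%, stand beside 58.6% of all genes. By direction, 5872 of all genes were higher and 3664 lower in MiaPaCa2, and 3493 and 4280 without centring. The splits of the lists therefore stand against a background that depends on the centring.

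Each library had 59896 to 109861 peaks, over 63.6 to 94.8 Mb in sum, and how many reads lie behind them is not known. Of 25 interferon-stimulated genes, 11 rose with IFN-beta in CFPAC1 and 13 in MiaPaCa2 (median log2 changes 1.11 and 1.41), where 1.01% and 0.645% of all genes were called. In CFPAC1, 0 genes of the whole table were called without treated replicate 1 and 5 without untreated replicate 1. Of 7 epithelial markers, 5 (KLF5, GRHL2, CDH1, EPCAM and ESRP1) had every CFPAC1 library above every MiaPaCa2 library, and ELF3 and KRT19 overlapped. CDH1 had 11616 to 31861 bp and EPCAM 3203 to 4463 bp in CFPAC1, and both had 0 bp in all 4 MiaPaCa2 libraries. Of 4 mesenchymal markers, VIM was higher in MiaPaCa2 (13255 to 15647 bp) than in CFPAC1 (3583 to 7440 bp). The other 3 had the opposite order: CDH2 and ZEB2 had 0 bp in every MiaPaCa2 library, and ZEB1 had 3532 to 4039 bp there against 4942 to 11893 bp in CFPAC1. Among markers of other cell types, PTPRC of leukocytes and PECAM1 of endothelium had 4063 to 7640 bp and 2962 to 15004 bp in CFPAC1 and 0 bp in MiaPaCa2, and COL1A1 of fibroblasts had 1409 to 4650 bp and 0 to 1342 bp. The part of these markers in the ACSL5 difference was not tested.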

How the data were processed

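H3K27ac ChIP-seq of 12 libraries was analysed from 1 peak list per library. Per the submitters' processing notes, the tools were Trimmomatic 0.38, Bowtie2 2.2.6, SAMtools and MACS2 2.1.0.20150731, with GRCh38. The deposited lists give the authors' fold enrichment ratio, -log10 p-value and -log10 q of each peak, made for each library on its own. The control library, filters and read depth are not given in the sources used here, so no interval that needs a read count was computed.

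Covered bp of each protein-coding gene (body and 5 kb flanks, chromosomes 1 to 22 and X) were computed with Python 3.11.15, numpy 2.4.6 and pandas 2.3.3. Genes covered in at least 2 libraries (16284 of 19974) were put on the scale log2(bp + 500), and the mean over genes was subtracted in every library. A single limma fit (limma 3.58.1, R 4.3.3) held all 6 groups, with trended empirical Bayes variances on 6 residual df. P-values were adjusted by Benjamini-Hochberg over all genes and called under 0.05. All 5 contrasts share this fit, so the spread of every group, also one at 0 bp, enters each standard error. The script was tested on simulated data. Alternatives were other windows, pseudocounts, scalings, filters, peak thresholds, peak number, a replicate block, fewer libraries and leaving out each library.

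Groups come from the sample labels. From each list other than interferon-stimulated genes, the genes named were taken from those called in a comparison, at most the 4 of smallest adjusted p. The 5 genes most like ACSL5 are those of highest r. The members and lists were chosen with earlier results of these data known. RefSeq has no promoter window for ACSM3 in the table used, and the only ACSF2 window lies inside the gene.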

Additional observations from a re-analysis of the deposited data

Results flagged for a closer look

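The change of ACSL5 with IFN-beta differed between the lines. The change in CFPAC1 minus that in MiaPaCa2 was -1.815 on the log2 scale of covered bp plus 500 (limma interaction contrast, adjusted p 0.0230). The value was -3.66 with 100 bp and -0.83 with 2000 bp. The call was lost in 10 of 22 alternatives: with 2000 bp, with peak number, with the libraries of the comparison alone, with the replicate block and in 6 of the 8 fits without 1 library. The libraries had 37255, 33162, 29332 and 27577 bp in CFPAC1 (untreated, then treated) and 0, 0, 1058 and 924 bp in MiaPaCa2, so treated values were lower in CFPAC1 and higher in MiaPaCa2. In CFPAC1 the change itself had an adjusted p of 0.858 in limma.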

How the results depend on the processing

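Depth is unknown, and covered length does not measure signal height, so a change of height under a peak of the same width would not be seen. Of 753 alternative values of the 40 member results, 673 kept direction and side of the threshold, 18 lost a call, 5 gained one and 57 changed sign, none of these 57 a value called in either fit. The causes were not tested.

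Members called in treated MiaPaCa2 went from 1 to 0 with a pseudocount of 2000 bp, with peak number and with the libraries of the comparison alone. For the difference of the IFN-beta changes the count went from 1 to 0 under the same 3 settings and with the replicate block, and was 0 to 1 over the left-out libraries. The adjusted p of ACSL5 in that contrast was 0.229 with 2000 bp, 0.253 with peak number and 0.0561 with the libraries of the comparison. Between the untreated lines 3 to 5 members were called over the left-out libraries, ACSL3 and ACSL4 being called in 3 and 2 alternatives.

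Replicate numbers in the labels give no pairing. Same-numbered libraries deviated with r = 0.247 (CFPAC1), -0.061 (MiaPaCa2), 0.222 (untreated lines) and -0.105 (clones). With the replicate block, ACSL5 stayed called in treated MiaPaCa2 (adjusted p 0.0274) and not in the difference of changes (0.211). Over all genes the block called 0 (CFPAC1 treatment), 68 (MiaPaCa2 treatment), 0 (difference), 8958 (lines) and 0 (clones). With the clone numbers crossed, an alternative chosen after seeing the data, 69 genes were called.

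Counts over all genes moved further. Leaving out a library gave 0 (treated replicate 1) to 58 (treated replicate 2) genes in treated CFPAC1 (165 with all), 17 (treated replicate 1) to 277 (untreated replicate 2) in treated MiaPaCa2 (105), 2 (treated CFPAC1 replicate 1) to 14 (treated MiaPaCa2 replicate 2) for the difference (10), 7270 to 8201 for the lines (9536) and 46 (WT clone 2) to 886 (IRF1KO clone 1) for the clones (202). Other settings gave 0 to 212, 9 to 154, 0 to 36, 5838 to 10117 and 0 to 226. Without centring, higher and lower calls were 66 and 59 in treated CFPAC1 (127 and 38 with it), 3 and 5 for the difference (5 and 5) and 97 and 28 in IRF1KO clones (105 and 97), and with quantile normalization 101 and 40 in treated MiaPaCa2 (95 and 10) and 8 and 5 for the difference. The median of all genes without centring was -0.14 in treated CFPAC1, -0.07 in treated MiaPaCa2 and 0.08 in IRF1KO clones (0.02, 0.03 and -0.05 with it).

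In treated CFPAC1, sign changes were ACSL1 0.18 and ACSL3 0.0628 with equal peak numbers, ACSL3 0.0167, ACSL4 -0.21 and ACSF2 0.0147 with gene ends only, ACSL6 0.0 and ACSM3 -0.0302 without centring. Over the left-out libraries the sign varied for ACSL3 from -0.31 to 0.0235 and ACSM3 from -0.0784 to 0.35. In treated MiaPaCa2, sign changes were ACSL1 0.46, ACSL3 0.30, ACSM3 -0.13 and ACSF2 -0.17 by peak number, ACSL3 0.0631, ACSM3 -0.0042 and ACSF2 -0.0773 in the body only, ACSM3 -0.0971 and ACSF2 -0.0975 without centring, ACSM3 -0.0139 with quantile normalization, ACSM3 -0.0129 and ACSF2 -0.0133 without a filter, ACSM3 -0.0593 with equal peak numbers, ACSF2 -0.0067 with 2000 bp. Over the left-out libraries the sign varied for ACSL3 from -0.13 to 0.0587, ACSL6 from -0.14 to 0.70, ACSM3 from -0.29 to 0.30 and ACSF2 from -0.0909 to 0.0983. For the difference of changes, sign changes were ACSL1 0.16 and ACSL3 0.20 at a -log10 q of at least 5, ACSL1 0.39 and ACSL3 0.16 with equal peak numbers, ACSL3 0.0525 and ACSF2 0.0111 with gene ends only. Over the left-out libraries the sign varied for ACSL3 from -0.27 to 0.0587, ACSL4 from -0.68 to 0.31, ACSL6 from -0.54 to 0.30 and ACSM3 from -0.17 to 0.42. Between the lines, sign changes were ACSL1 0.66 with gene ends only, ACSL1 0.53 with equal peak numbers. In the clones, sign changes were ACSL4 0.0382 without centring, ACSF3 -0.0823 by peak number. Over the left-out libraries the sign varied for ACSL1 from -0.0892 to 1.08, ACSL3 from -0.22 to 1.06, ACSL4 from -0.47 to 0.29 and ACSL6 from -0.39 to 0.98.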
